A study of Rattus norvegicus with 2 samples.

Results

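Small noncoding RNA names were examined in poly(A)-selected RNA-seq of RBL-2H3, a basophilic leukemia line of the rat that serves as a model of mast cells and basophils. The members were all names beginning with SNOR, Snor, Scarna or Y_RNA, U followed only by digits, and Mir followed by a digit, taken once each. That gave 194 of 14913 distinct names. The rule also asked for names beginning with 7SK and for numbered Snhg names, and 0 of the names analysed here matched either. The data were 2 libraries, 1 of untreated wild-type cells and 1 of wild-type cells incubated with IgE, and the labels state neither dose nor duration nor whether antigen was added. Both came from the same line, and each condition was sequenced once, so no difference given here has a replicate check and no test across samples was made.

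Small nuclear RNAs form the core of the spliceosome. Small nucleolar RNAs (snoRNAs) guide chemical modification of ribosomal RNA, the box C/D class directing methylation and the box H/ACA class directing pseudouridylation, and their relatives in the Cajal body act on small nuclear RNAs. Most snoRNAs and many microRNAs are cut from introns of longer transcripts, and the mature small RNAs carry no long poly(A) tail, whereas the primary transcripts that contain microRNA hairpins usually do. Reads under such a name in a poly(A) library can therefore come from a precursor, from a host transcript or from the small RNA itself, and counts per name do not tell these apart. The same counts cannot separate near-identical copies.

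The libraries held 20917968 counted reads (untreated) and 26268330 (IgE). All 9 of the listed mast cell and basophil markers were measured, and the receptor subunit Ms4a2 stood at 1254 and 1373 CPM (counts per 1e+06 reads after library scaling). Of the other markers, 3 of 5 macrophage names were counted with at most 46 reads per library. All 3 had fewer with IgE, Msr1 with 26 and 7 (log2 fold -2.13, counting interval -3.66 to -0.97), and their part in the results below was not tested. Counted were also 3 of 5 lymphocyte names, with at most 296 reads, and 1 of 5 fibroblast names, the collagen gene Col3a1, at 281.7 and 252.5 CPM.

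The microRNA names on which a ratio can be read were 6 of 97. Their mature products, as far as matched, are shown because the reads were counted under the hairpin gene, several times longer than the product it is named for. For Mir301a only the 5p arm was matched, and for Mir3064 only the 3p arm. RefSeq (GRCr8) mature sequences were matched for 79 of the 97 names, and bases 2 to 8, the seed that pairs with target mRNAs, are in capitals.
rno-miR-142-5p: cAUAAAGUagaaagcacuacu
rno-miR-142-3p: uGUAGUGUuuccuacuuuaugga
rno-miR-22-5p: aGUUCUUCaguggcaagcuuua
rno-miR-22-3p: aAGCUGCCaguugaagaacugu
rno-miR-24-2-5p: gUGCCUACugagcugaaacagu
rno-miR-24-3p: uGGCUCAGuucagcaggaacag
rno-miR-301a-5p: gCUCUGACuuuauugcacuac
rno-miR-3064-3p: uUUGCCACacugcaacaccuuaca
rno-miR-31b: cUAUGCCAgcaucuugccu
The last of these is the product that RefSeq gives for Mir3554. No 2 of these 9 sequences share a seed.

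The hairpins of the pair of microRNA names that were at least 2-fold apart show how much of the counted gene lies outside the mature arms, which are in capitals here. That of Mir142 is 87 bases long (GRCr8 chr10:73055104-73055190, + strand) and that of Mir22 is 95 (GRCr8 chr10:60805331-60805425, + strand). 
Mir142: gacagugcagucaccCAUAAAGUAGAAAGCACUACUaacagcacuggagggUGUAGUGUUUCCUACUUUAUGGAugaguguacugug
Mir22: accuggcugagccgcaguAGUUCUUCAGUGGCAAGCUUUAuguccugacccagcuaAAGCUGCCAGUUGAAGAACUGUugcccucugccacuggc
Over the 87 microRNA names in the RefSeq gene table the annotated lengths ran from 63 to 127 bases, with a median of 92. Snora19, which the table annotates as a microRNA, is kept here with the box H/ACA names by its spelling. Over the 40 members annotated there as snoRNA they ran from 65 to 328 bases, with a median of 88.

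Altogether, 2613 untreated and 3261 IgE reads were counted under the 194 names. These made up 0.0125% of the untreated reads (exact Clopper-Pearson 95% interval 0.0120 to 0.0130) and 0.0124% of the IgE reads (0.0120 to 0.0128). On the scaled level the sums were 124.7 and 124.4 CPM, a log2 fold of -0.00 (counting interval -0.08 to 0.07). Folds are IgE over untreated, so that values above 0 are higher with IgE, and each such interval covers counting error only. The total under these names was thus level between the libraries within counting error.

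Reads were spread very unevenly over the names. U6, the catalytic small nuclear RNA made by RNA polymerase III, held 782 untreated and 1026 IgE reads, 29.9% and 31.5% of all reads under the 194 names. The 6 names with the most reads (U6, U2, SNORA71, SNORA70, U1 and U4) held 57.1% and 59.7%. At the other end, 31 names had no read in either library, which at 3 reads allows a level of up to 0.143 CPM (untreated) and 0.114 CPM (IgE). A further 118 names had 1 to 19 reads over both libraries, with a median of 4. Names without a read made up 3.00% of all names in the table but 16.0% of the small RNA names. The minimum of 20 reads used for ratios was reached by 45 of the 194, against 81.2% of all names.

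**Figure D1:**
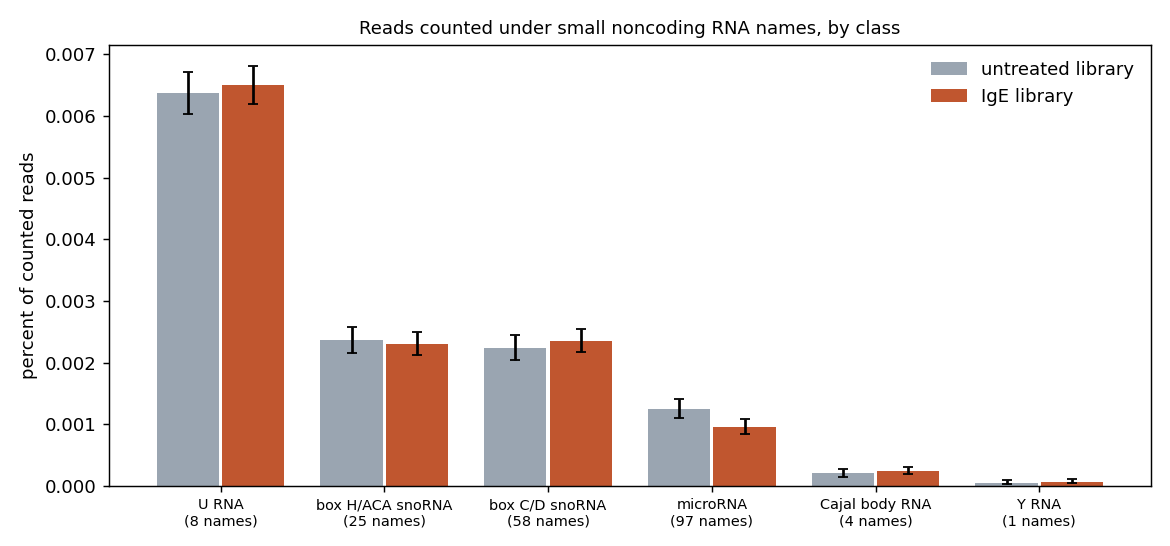
Percent of all counted reads (y axis) held by each class of small noncoding RNA names (x axis) in the untreated and IgE libraries. Error bars are exact 95% binomial intervals of the counts. The U RNA names take the largest share in both libraries, and the microRNA names are the class whose log2 fold of sums has an interval below 0. The 7 let-7 microRNA names fall outside the rule and are not included. They had 18 untreated and 35 IgE reads.

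Many of the capital-letter names were family names rather than single genes. In the table, 32 of the 194 names stood in more than 1 identical row, which gave 1902 rows for 194 names, and they accounted for 1708 of the 2077 repeated rows (82.2%). U6 stood in 796 rows, U2 in 236, U1 in 167, U4 in 136 and U7 in 122. Spread evenly over its rows, the U6 count would be 0.98 untreated and 1.29 IgE reads per row. SNORA70, an H/ACA family with 43 rows, would have 3.0 and 3.93 reads per row, and U7, which acts in histone mRNA 3′ end formation, 0.28 and 0.36. Row number and read number did not go hand in hand throughout. SNORD115 and SNORD116, box C/D families known from an imprinted, brain-expressed locus, stood in 54 and 39 rows. SNORD115 had 0 and 5 reads and SNORD116 had 5 and 6. Under small RNA names, the repeated ones held 69.7% of the untreated reads and 72.0% of those with IgE, so most reads here belong to names that cannot be assigned to a single gene.

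**Figure D2:**
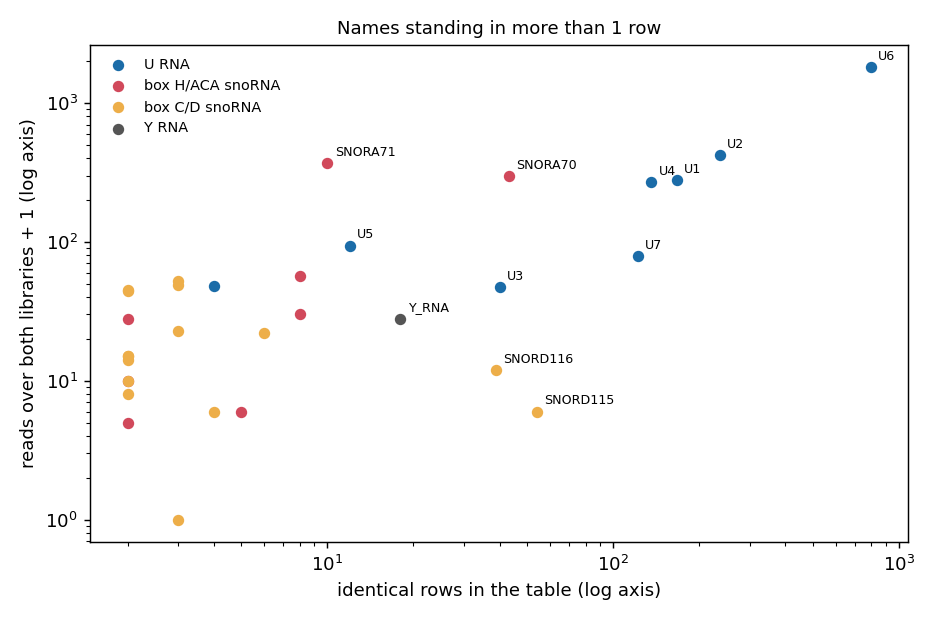
Reads over both libraries plus 1 (y axis, log scale) against the number of identical rows (x axis, log scale) for the 32 names that stood in more than 1 row, coloured by class. Names with 10 or more rows are labelled. U6 is highest on both axes, while SNORD115 and SNORD116 have many rows and few reads.

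The spliceosomal names were close to level. Summed over U1, U2, U4, U5, U6 and U12 there were 1273 untreated and 1643 IgE reads, or 60.7 and 62.7 CPM (log2 fold of sums 0.05, counting interval -0.06 to 0.15). U6 stood at 37.3 and 39.1 CPM (0.07, -0.07 to 0.20). U2, which pairs with the branch point, had 200 and 220 reads (-0.18, -0.47 to 0.10). U1, which recognises the 5′ splice site, had 114 and 165 reads (0.21, -0.14 to 0.57). All 3 intervals span 0. U4, the partner of U6 in the tri-snRNP, had 116 and 153 reads (0.08), U5 had 43 and 50 (-0.10), and U12, of the minor spliceosome, had 18 and 29 (0.36). Of the U names outside splicing, U7 had 34 and 44 reads (0.05). U3, a box C/D RNA of pre-ribosomal RNA processing, had 25 and 21 (-0.56, -1.48 to 0.32). None of the 8 U names was 2-fold apart.

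The box H/ACA names were likewise between the 2-fold limits. The 25 names summed to 494 and 605 reads, or 23.6 and 23.1 CPM (log2 fold of sums -0.03, counting interval -0.20 to 0.14). Of 9 names with 20 or more reads, 0 were 2-fold apart, 4 lay above 0 and 5 below, with a median of -0.11. SNORA71 had 152 and 215 reads (0.18) and SNORA70 had 129 and 169 (0.07). Snora17 had 59 and 46 reads, and its log2 fold of -0.68 (-1.27 to -0.10) was the only one of the 9 whose interval left out 0. Snora7a had 34 and 33 reads (-0.36) and SNORA73, a family linked to pre-ribosomal RNA processing, 26 and 30 (-0.11). The 8 capital family names summed to 338 and 449 reads (0.09, -0.12 to 0.29), while the 17 names in gene style summed to 156 and 156 (-0.32, -0.65 to 0.01). The difference between these 2 kinds of name was not tested.

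The 58 box C/D names summed to 469 and 616 reads, or 22.4 and 23.5 CPM (log2 fold of sums 0.07, counting interval -0.11 to 0.25). Of 18 with 20 or more reads, 3 were higher with IgE by at least 2-fold, 1 was lower by that much and 14 were nearer to level. SNORD73 had 5 untreated and 17 IgE reads (log2 fold 1.37, -0.06 to 3.24). Snord111 had 7 and 22 (1.28, 0.05 to 2.80), and Snord87 had 14 and 36 (1.02, 0.11 to 2.05). On the lower side SNORD83 had 29 and 14 (-1.34, -2.41 to -0.41). These 4 names had at most 50 reads over both libraries, a depth at which 2-fold differences were common (21.7% of all genes with 20 to 49 reads), and the interval of SNORD73 includes 0.

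SNORD83 also shows how naming divides the reads of related RNAs. The family name stood in 2 rows with 29 and 14 reads, whereas Snord83b, listed as a gene of its own, had 1 and 5. The latter is under the minimum for a ratio, and the counts point in opposite directions. Among C/D names with more reads, SNORD96 had 54 and 102 (0.59, 0.11 to 1.10), the largest number in the class and an interval above 0. Snord17 had 51 and 48 reads (-0.41), Snord19 had 23 and 31 (0.11), SNORD18 had 20 and 31 (0.30) and Snord52 had 26 and 24 (-0.43), all with intervals spanning 0. The lowest in gene style were Snord8 (13 and 8 reads, -0.97) and Snord49b (27 and 18, -0.89, -1.85 to 0.01), neither of them 2-fold apart.

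Among the Cajal body RNAs, which guide modification of spliceosomal RNAs, 3 names had a ratio, and only Scarna10 was 2-fold apart. It had 4 untreated and 18 IgE reads (log2 fold 1.74, counting interval 0.25 to 3.87), the highest fold among the 45 names with a ratio. Its 22 reads were close to the minimum of 20. Of all genes with 20 to 49 reads, 21.7% were 2-fold apart. Scarna6 (27 and 31 reads, -0.12) and Scarna8 (12 and 14, -0.10) were level within counting error, and Scarna3b had no reads. Y_RNA, the family of short RNAs bound by the Ro60 protein, stood in 18 rows with 10 and 17 reads (0.43, -0.77 to 1.73).

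Of the 6 microRNA names with a ratio, 1 was higher by at least 2-fold, 1 was lower by that much and 4 were nearer to level. Mir22 had 9 untreated and 24 IgE reads (log2 fold 1.06, counting interval -0.06 to 2.38). Mir142, whose products are abundant in blood cells, had 22 and 12 (-1.16, -2.35 to -0.12). The interval of Mir22 includes 0 and that of Mir142 does not. Both names had 20 to 49 reads over both libraries, a depth at which 21.7% of all genes were 2-fold apart. Mir3064 had 24 and 18 reads (-0.72), Mir24-2 had 12 and 16 (0.09), Mir301a had 10 and 16 (0.34) and Mir3554 had 13 and 9 (-0.82), each with an interval spanning 0.

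Summed over all 97 names, the microRNA reads were fewer with IgE, at 261 untreated and 250 IgE reads, or 12.5 and 9.54 CPM. The log2 fold of the sums was -0.38 (counting interval -0.64 to -0.13), and among the 6 classes this was the only sum whose interval left out 0. Without Mir142 and Mir3064 the log2 fold of the sums was -0.29 (-0.57 to -0.01), with the upper bound close to 0. The 7 let-7 microRNA names fall outside the rule by their spelling and are not in these sums. They had 18 untreated and 35 IgE reads, which is the other direction, and a sum that includes them was not computed. Of the reads summed over the 97 names, the 91 names under 20 reads gave 171 and 155 (-0.46, -0.79 to -0.14). The 6 names with a ratio gave 90 and 95 (-0.24, -0.68 to 0.19), an interval that spans 0. The lower sum thus lay more with names below the minimum used for ratios. The microRNA names detected were as many in each library: 55 of 97 had a read without IgE and 55 with it. Over all 14913 names in the table, 14024 had a read without IgE and 14078 with it. With 1 library per condition, the difference in the sums cannot be set against the variation between cultures.

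Several microRNAs known from immune cells were close to the detection limit. Mir155 had 0 and 1 reads, Mir21 had 0 and 7, Mir146b had 9 and 1, and Mir221 and Mir222, which share a seed, together had 8 and 5. The 127 mature sequences of the matched names held 113 different seeds, and 10 seeds were shared by 2 or more names. Arms that were not matched are not in these counts. The group of Mir25, Mir32, Mir92a1 and Mir92b is shown as an example of a shared seed (bases 2 to 8 in capitals) that is represented by few reads.
rno-miR-25-3p: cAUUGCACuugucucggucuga
rno-miR-32-5p: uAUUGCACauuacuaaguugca
rno-miR-92a-3p: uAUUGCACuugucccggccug
rno-miR-92b-3p: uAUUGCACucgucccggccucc
Together these 4 names had 7 untreated and 10 IgE reads, of which Mir25 gave 6 and 8. Mir25, Mir106b and Mir93 lie within Mcm7, a subunit of the replicative helicase, on its strand in the RefSeq gene table. Mcm7 had 4584 and 5951 reads, while Mir106b and Mir93 had none.

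**Figure D3:**
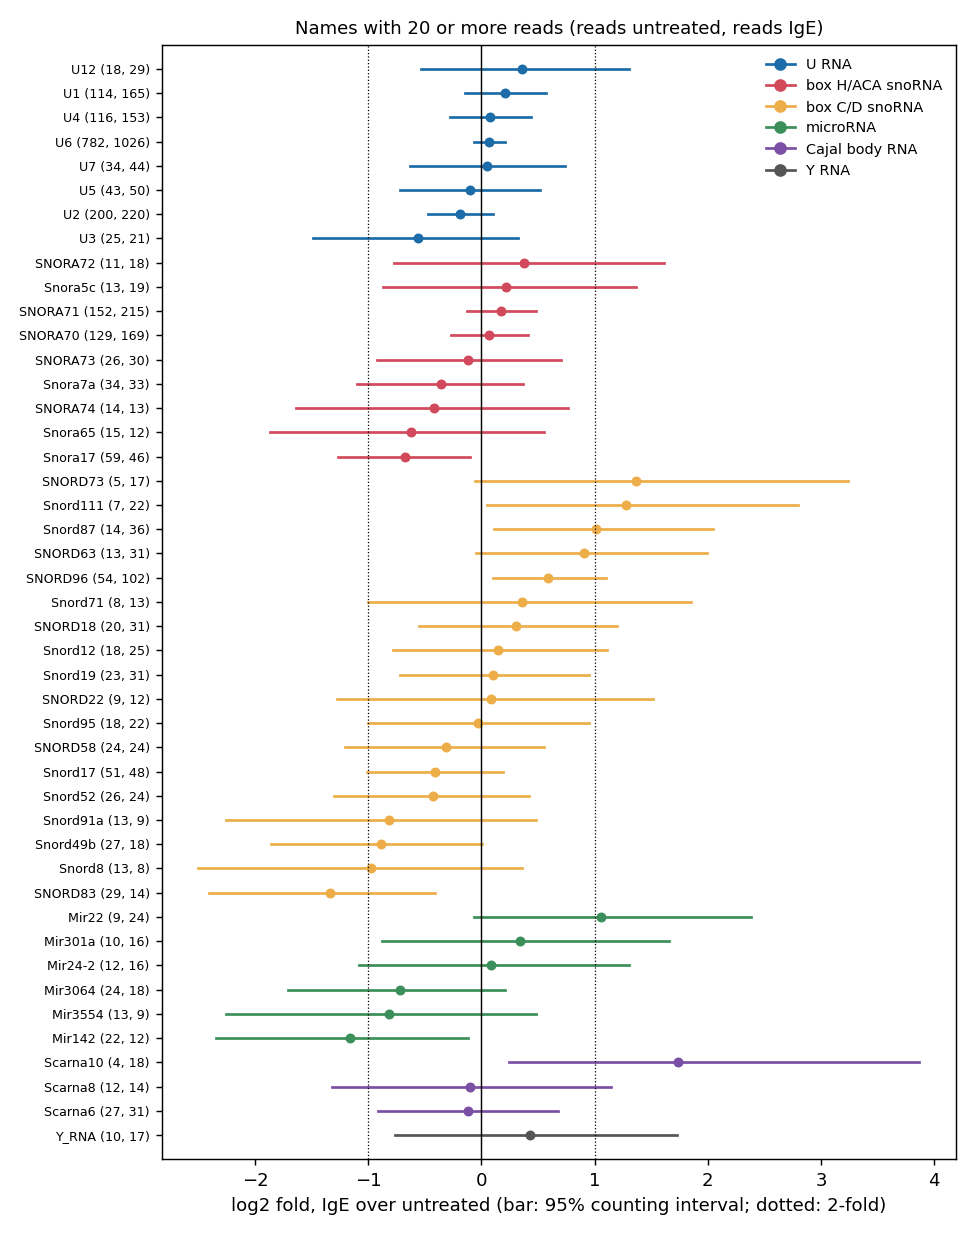
Log2 fold, IgE over untreated (x axis), of the 45 names with 20 or more reads (y axis, with untreated and IgE reads in brackets), coloured by class. Bars are exact 95% counting intervals and dotted lines mark a 2-fold difference. Most bars span 0, and 7 points lie beyond the dotted lines, the farthest being Scarna10 at 1.74.

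Over all classes, 7 of the 45 names with a ratio were at least 2-fold apart (15.6%), against 2.63% of the 12102 genes with 20 or more reads. By direction, 5 were higher (all genes 1.33%) and 2 lower (all genes 1.30%). The small RNA names had far fewer reads than other genes, however, with a median of 44 reads over both libraries against 1402.5. Among genes with 20 to 99 reads, 16.3% were at least 2-fold apart, and among the 37 small RNA names in that range 7 were (18.9%). With 20 to 49 reads the shares were 21.7% of genes and 6 of 27 names, and with 50 to 99 reads 8.14% and 1 of 10. With 100 or more reads it was 0.347% of genes and 0 of 8 names. At a like number of reads, the share of small RNA names 2-fold apart was therefore near that of all genes.

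Directions were mixed. Of the 45 names, 24 lay above 0 and 21 below, with a median log2 fold of 0.07, beside a median of 0.00 over all 12102 genes, of which 50.3% lay above 0. The median size of the fold among names with 20 to 99 reads was 0.41, against 0.46 for all genes in that range. Counting intervals left out 0 for 7 of the 45 names, 4 higher (SNORD96, Snord87, Snord111 and Scarna10) and 3 lower (SNORD83, Snora17 and Mir142). The same was true of 38.5% of all genes, and, among genes with 20 to 99 reads, of 18.8% against 5 of 37 names. Names that were both 2-fold apart and had an interval leaving out 0 numbered 5 of 45 (11.1%), against 2.28% of all genes. Most genes had many more reads than these names, and this share was not computed at a like number of reads.

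**Figure D4:**
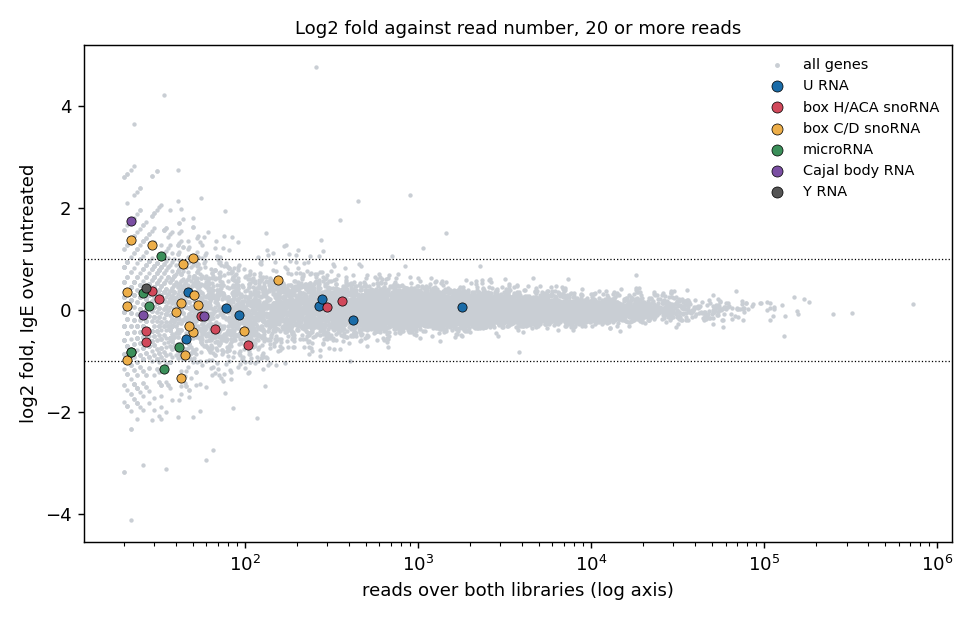
Log2 fold, IgE over untreated (y axis), against reads over both libraries (x axis, log scale) for the 12102 genes with 20 or more reads (grey) and the 45 small noncoding RNA names (coloured by class). Dotted lines mark a 2-fold difference. The names beyond the lines have 22 to 50 reads, where the grey points also spread widely.

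In the authors' deposited table, 13 of the 194 names (6.7%) were in the list of selected genes (7 up and 6 down), against 3.02% of all names. These shares were not compared at a like number of reads. Of these, 4 had 20 or more reads (SNORD83, Snord111, Scarna10 and Mir142). The other 9 had fewer, among them Snora64 with 9 and 0 reads, Snora33 with 2 and 17, Mir628 with 1 and 13, Mir1249 with 8 and 0, and Mir6332 with 0 and 8. The lowest adjusted p of any small RNA name in the authors' deposited table was 0.269, for Snora64, and 0 of the 194 had one under 0.05, while 13 had an unadjusted p under that value. No replicate underlies those p-values.

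To set the names beside the transcripts they lie in, each was placed in the RefSeq gene table (GRCr8), which was used only for which gene contains which. It held 131 of the 194 names, of which 113 lay within the span of another gene. The strand relation was known only for names annotated as microRNAs, and not for all of those. Of the microRNA names, 42 lay in a gene on the same strand, while 11 lay only in genes on the opposite strand. The table also lists Snorc, which meets the rule by its spelling, as protein-coding. It encodes a cartilage proteoglycan and had 4 and 2 reads.

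A ratio for both the name and a counted containing gene, not known to be on the opposite strand, was available for 16 names. None of the containing genes was 2-fold apart, with log2 folds from -0.86 to 0.16, and the sign was the same as that of the small RNA name in 9 of the 16. Sf3b3, a splicing factor gene that contains Snord111, had 9060 and 11611 reads (0.04). Ncapd2, a condensin subunit gene that contains Scarna10, had 6306 and 7296 (-0.11), and Mcmdc2, which contains Snord87, had 193 and 258 (0.10). In these 3 cases the small RNA name was at least 2-fold higher while this containing gene was near 0. The names had far fewer reads than these genes, and folds were not compared at a like number of reads. Snord87 also lies within LOC102556004, a long noncoding RNA gene with no value here, and the strand of these 3 names was not known. Tspoap1, whose span contains Mir142, had 44 and 30 reads (-0.86), in the same direction as the microRNA name. Their strand relation was not known. The reads of Mir142 were 50% (untreated) and 40% (IgE) as many as those of Tspoap1. The median of this share over the 16 names was 0.59% in the untreated library. Ddx5, a helicase gene that contains Mir3064 on the same strand, had 17109 and 22223 reads (0.05). Whether any read was counted both for a small RNA and for its containing gene was not tested.

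**Figure D5:**
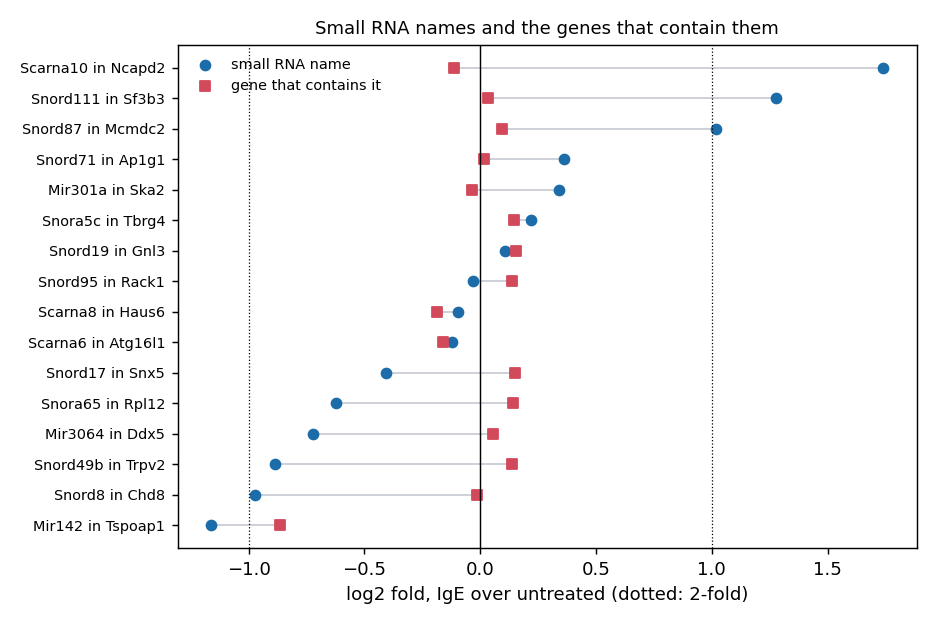
Log2 fold, IgE over untreated (x axis), of 16 small RNA names with 20 or more reads (circles) and of the gene whose span contains each (squares), 1 pair per line. Dotted lines mark a 2-fold difference. The containing genes lie between -0.86 and 0.16, while the small RNA names spread from -1.16 to 1.74. The names had 20 to 99 reads, and all containing genes but Tspoap1 had 100 or more. Over all genes, the standard deviation of the log2 fold was 0.80 at 20 to 99 reads and 0.22 at 100 or more.

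Per length, the names in gene style are set beside each other only, since no such value was computed for other genes. For the 21 names with a ratio and a RefSeq length, the untreated values ran from 0.58 CPM per kilobase of annotated length for Scarna10 to 18.8 for Snord52. In the IgE library they ran from 2.09, again Scarna10, to 16.2 for Snord87. Snord49b (18.1 and 9.67) and Mir3064 (17.1 and 10.2) were among the highest untreated values. Snord19, which lies in the nucleolar GTPase gene Gnl3, had 14.3 and 15.4.

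The proteins that make, carry and degrade these RNAs were measured on many more reads. Of 158 genes measured in 10 lists, 0 were at least 2-fold apart. All 158 had 100 or more reads, where 0.347% of all genes were 2-fold apart, so that a count of 0 is near the background. By direction 87 lay above 0 and 71 below, and the median log2 fold was 0.01. Of 19 snoRNP core and assembly genes, 12 lay above 0 and 7 below (median 0.04). The methylase Fbl of box C/D particles stood at 272.0 and 266.6 CPM (-0.03), and its partner Nop58 at 282.3 and 298.0 (0.08). The highest was the assembly factor Pih1d1 (0.28), the lowest Tcof1 (-0.21), and the most reads were counted for Nolc1, a snoRNP chaperone (601.1 and 580.2 CPM).

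Sm and Lsm proteins, which form rings on small nuclear RNAs, were the list most shifted to one side. Of 18 genes 17 lay above 0, against 50.2% of all genes with 100 or more reads. Their median was 0.17, and 13 had counting intervals above 0. Intervals left out 0 for 38.5% of all genes with 20 or more reads, in either direction, and for 71 of the 158 in these lists. The share for each direction alone, or at 100 or more reads, was not computed. Snrpg (657 and 1233 reads, 0.59) and Lsm5 (327 and 593, 0.54) were highest, although both stood in 2 identical rows. Sart3, the U4/U6 recycling factor, was lowest (-0.07), and Snrpb had the most reads (221.3 and 236.0 CPM). Of 16 Cajal body and snRNP assembly genes 13 lay above 0, from Gemin7 (-0.44) to Gemin2 (0.24), with Strap at 222.8 and 231.4 CPM. Genes of snRNA transcription and 3′ end formation were balanced, 10 above and 12 below, from Snapc4 (-0.41) to Ints12 (0.25), with Ints13 at 167.6 and 175.6 CPM.

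MicroRNA processing genes lay mostly on the lower side, 9 of 13 below 0, with a median of -0.13 and 7 intervals below 0. Of all genes with 100 or more reads, 50.2% lay above 0. The 38.5% of all genes given above covers both directions and fewer reads. A share of intervals below 0 at a like number of reads was not computed. Drosha, which cuts the primary transcript, stood at 142.9 and 123.7 CPM (-0.21), the lowest of the list. Dicer1, which cuts the hairpin, was at -0.18, the Argonaute gene Ago2 at -0.13, Tnrc6a at -0.14 with the most reads, and Ago4 highest at 0.18. These differences are small beside a 2-fold limit.

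The remaining lists also held no 2-fold difference. Of 8 genes of the 7SK particle and P-TEFb, Hexim2 was lowest (-0.46) and the 7SK-binding Larp7 highest (0.25). The Y RNA and La list had 6 genes between Ptbp1 (-0.01) and Ro60 (0.07), with Ncl at 2216 and 2213 CPM. RNA tailing and trimming genes ran from Zcchc7 (-0.19) to Pabpn1 (0.25), with Mtrex, the nuclear exosome helicase, at 273.0 and 275.4 CPM. RNA polymerase III genes ran from Gtf3c4 (-0.20) to Polr3f (0.17), with Bdp1 at 217.6 and 201.6 CPM. Nonsense-mediated decay genes ran from Smg9 (-0.30) to Magoh (0.29), with Smg1 at 377.4 and 355.6 CPM.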

How the data were processed

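The authors deposited whole-number read counts per gene name for 1 untreated and 1 IgE library, with log2 fold changes of their own, a p-value and an adjusted p-value per name, per the file headers. A second deposited table is a subset of the first. RNA was poly(A)-selected, per the labels' protocols. Per the submitters' processing notes, the build was rn6 and the tools included HISAT2 2.1.0, fastp 0.23.0 and DESeq2 1.18.1, with no roles. How reads were counted, on which strand and with what treatment of multi-mapping reads is not given in the sources used here, and this bears directly on small RNAs with many copies.

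Identical rows were merged (16990 rows, 14913 names). Log2 folds were computed from the counts in R 4.3.3 with TMM scaling from edgeR 4.0.16, a prior of 0.5 counts and a minimum of 20 reads over both libraries. Each ratio has a 95% interval from the exact Clopper-Pearson method. Reads need not be independent molecules, so intervals and the floor of 3 reads cover counting error only. With 1 library per group no test was possible, and a 2-fold rule of size was used. Named were all names 2-fold apart or with an interval leaving out 0, the 5 with most reads in each class, those with the most rows, and per protein list the highest, the lowest and the one with most reads. A gene that this rule names is not reported here. Other names were chosen after their values were seen. The members and lists were chosen with earlier results of these data known. Strand of snoRNAs was not known, nor was the strand relation of some microRNAs, so containing genes were not restricted by strand for these names. The calculation was tested on simulated data. Alternatives were library totals, DESeq2 1.42.0 size factors, a prior of 5 counts, other minimums, a 1.5-fold rule, and other choices of names.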

Additional observations from a re-analysis of the deposited data

How the results depend on the processing

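The number of small RNA names at least 2-fold apart depended on how names with few reads were handled. It was 5 higher and 2 lower as reported, 1 and 1 with a prior of 5 counts, 0 and 0 with at least 100 reads, 44 and 48 with no minimum, and 7 and 9 with a 1.5-fold rule. In an alternative chosen after seeing the data, asking that the counting interval also leave out 0 gave 3 higher. Over all genes, 161 higher and 157 lower became 104 and 100 with a prior of 5 counts, 855 and 875 with no minimum, 21 and 15 with a minimum of 100 reads, and 436 and 432 with a 1.5-fold rule. The protein lists gave 1 higher gene with a 1.5-fold rule, against 0. Counting identical rows each time moved the share of reads under these names to 3.26% (untreated) and 3.37% (IgE), by construction, and leaving out U6 moved it to 0.00875% and 0.00851%. Another 50 alternative values stayed close to the value reported. Among them, shares and class sums lay within its counting interval, and counts within 1.5 times of it. The median fold lay within a distance taken from the counting interval of the summed reads of names with a ratio. All class sums were among the 50. Without the name with most reads, however, the Cajal body sum was 0.68 in place of 0.23. The box C/D and U RNA sums then turned from 0.07 and 0.04 to -0.01 each. No name changed sign under these scalings. Leaving out names of host transcripts removed none. Names with few reads are limited by depth, and variation between cultures was not measured. No paired analysis was possible because only 1 library stands for each condition, which also means that none could be left out.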

Other observations

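Further noncoding RNA names outside the rule were also counted on few reads. RNaseP_nuc, the family name of the RNA of ribonuclease P, stood in 34 rows with 37 untreated and 57 IgE reads (log2 fold 0.30, counting interval -0.32 to 0.94), while the gene name Rpph1 had 3 and 10 reads. Metazoa_SRP, the signal recognition particle RNA family, had 15 and 27 reads in 26 rows (0.51, -0.44 to 1.54), and 5S_rRNA had 11 and 19 in 145 rows (0.45, -0.68 to 1.68). The 5.8S family, which the table writes 5_8S_rRNA, had 13 and 17 reads (0.06). H19, a long imprinted RNA, had 34 and 28 (-0.59, -1.38 to 0.16). Of the 5 names with 20 or more reads none was 2-fold apart, and every interval given spans 0. Rpph1 is under that minimum and has no ratio. Vault was listed at 0 in both libraries. The 7 names of the let-7 microRNA family begin with Mirlet7 and so fall outside the rule. Together they had 18 untreated and 35 IgE reads, of which Mirlet7i had 8 and 15.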
